A study of Mus musculus with 9 samples.

Results

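The genes described here encode the subunits of the mitochondrial respiratory chain and of the ATP synthase. They were taken by name, as every probe set whose platform annotation gives 1 gene symbol that begins as the symbols of complex I to complex IV, cytochrome c and ATP synthase subunits do. The rule found 170 of the 45101 probe sets on the array, for 84 genes. Of these, 151 probe sets for 81 genes passed a filter on low signal, and this was 96.4% of the genes against 74.8% of all named genes. Cox7a1 and Cox8b, the heart and muscle forms of 2 complex IV subunits, and Ndufb4 of complex I did not pass it. The 81 genes measured were 32 of complex I, 4 of complex II, 9 of complex III, both forms of cytochrome c, 17 of complex IV and 17 of the ATP synthase. Ndufa4 and Ndufa4l2 are counted with complex IV.

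The arrays held RNA of cells labelled as spermatogonia, from adult Balb/C mice. The mice ate either a normal control diet or a diet deficient in vitamin A (VAD). Cells make retinoic acid from vitamin A, and retinoic acid starts the differentiation of spermatogonia. There were 3 control arrays, 3 of mice after 18 weeks of VAD and 3 after 25 weeks of VAD, and no genotype was named beyond the strain. Cells came from the testes of 2 mice a preparation, were plated overnight, were separated by sedimentation in an albumin gradient and had a stated purity above 90%. The labels give neither the ages of the mice nor whether each array held a separate preparation, so p-values measure the spread between these samples, which may be technical. The RNA, 100 ng per sample, was amplified over 2 cycles, and precision is limited by having 3 arrays in a group. Fewer cells of a type and less RNA per cell cannot be told apart in such bulk samples.

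The respiratory chain passes electrons from complex I and complex II through complex III and cytochrome c to complex IV, which reduces oxygen, and the proton gradient this builds drives the ATP synthase. Nuclear genes supply most of the subunits, and NRF1, ETS factors such as GABP, YY1 and factors that bind the cAMP response element are known regulators of many of them. Male germ cells replace several somatic subunits by forms made mainly in the testis, among them Cyct for Cycs, Cox6b2 for Cox6b1 and Cox8c for Cox8a.

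Promoters of 3 genes are printed because they show this contrast between the somatic and the testis form of cytochrome c and hold 1 gene that was lower after 25 weeks beside 1 that was higher. Each is the 250 bases before the gene's RefSeq start on build GRCm38.p6, read in the direction of the gene, with matches to the searched letters in capitals. The window of Cycs is chr6:50566570-50566819 on the minus strand and overlaps the noncoding gene 5430402O13Rik. That of Cyct is chr2:76360454-76360703 on the minus strand, and that of Ndufa6 is chr15:82354292-82354541 on the minus strand.
Cycs: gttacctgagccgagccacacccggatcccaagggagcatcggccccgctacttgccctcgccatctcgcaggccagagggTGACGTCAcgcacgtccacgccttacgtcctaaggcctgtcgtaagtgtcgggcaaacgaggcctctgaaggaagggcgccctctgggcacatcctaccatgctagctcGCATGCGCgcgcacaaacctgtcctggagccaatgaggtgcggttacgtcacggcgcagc
Cyct: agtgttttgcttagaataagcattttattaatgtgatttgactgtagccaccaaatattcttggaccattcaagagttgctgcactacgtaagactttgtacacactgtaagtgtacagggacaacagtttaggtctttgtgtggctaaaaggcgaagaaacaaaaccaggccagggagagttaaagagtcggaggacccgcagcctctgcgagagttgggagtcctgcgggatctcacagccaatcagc
Ndufa6: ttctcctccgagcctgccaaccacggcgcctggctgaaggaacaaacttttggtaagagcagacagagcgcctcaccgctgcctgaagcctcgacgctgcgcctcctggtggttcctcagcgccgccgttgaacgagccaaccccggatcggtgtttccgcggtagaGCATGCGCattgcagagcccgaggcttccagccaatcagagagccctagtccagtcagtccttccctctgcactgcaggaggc

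The Cycs window held the letters of a cAMP response element, TGACGTCA, 169 bases before the start and the NRF1 core GCATGCGC 60 bases before it. The Ndufa6 window held the NRF1 core 83 bases before the start, and none of the searched letters was found in the Cyct window. RefSeq promoters were found for 68 of the 84 genes, and the searches ran on both strands of the same 250 bases. The NRF1 core was in 8 of the 68 windows (11.765%), against 2.561% of 27025 promoters of all genes. The ETS letters CCGGAAG were in 12 (17.647%) against 7.826%, TGACGTCA in 4 (5.882%) against 1.769%, and the YY1 letters AAGATGGCG in 1 (1.471%) against 0.71%. Of the 10 genes with a promoter that passed the test at 25 weeks, Cycs, which was higher, and Ndufa6, which was lower, held the NRF1 core, and Ndufb7, which was higher, held the ETS letters. A match describes the sequence and does not show that a factor binds there.

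The arrays fell into sets that the groups do not explain. Control replicate 3 and VAD 25-week replicate 3, the dim pair, had trimmed mean signals of 23.0 and 23.3, against 55.6 to 186.4 on the other 7 arrays, and over the 81 genes they correlated with each other at r = 0.962 and with the other arrays at 0.853 to 0.904. The model carried a block for the pair. An earlier account of these data had found that the group alone called nothing and had then added the block. The block was thus chosen with both outcomes known, and counts of called members are also given with the group as the sole term. VAD 25-week replicates 1 and 2 had actin 3' to 5' ratios of 7.82 and 7.92, against 3.32 to 5.74 elsewhere, and poly-A control signals of 270.2 and 337.6 against at most 10.6. Markers of other cells also moved with the diet. Of 18 Sertoli cell markers past the filter 7 were higher at 18 weeks and 10 at 25 weeks, or 38.9% and 55.6% against 1.36% and 9.05% of all named genes, and their summed signal was 323.5 to 439.6 in control arrays, 942.8 to 2818 at 18 weeks and 1161 to 2072 at 25 weeks, while Amh, Sox9 and Sox8 were below the filter. Leydig cell markers were higher in 0 and 2 of 7, leukocyte markers in 0 and 5 of 11 and peritubular myoid markers in 0 and 0 of 5. Among genes of undifferentiated spermatogonia, 10 of 18 on the array passed the filter, and Ret, Lin28a, Sall4, Pou5f1, Neurog3, Lhx1, Eomes and Pax7 did not. Of the 10 that passed it, 1 was higher at 18 weeks and 1 at 25 weeks, and 0 were lower. Their summed signal was 448 to 499.4 in control arrays, 636.5 to 770.9 at 18 weeks and 737.4 to 851.5 at 25 weeks. The median log2 fold change of these 10 genes was 0.06 at 18 weeks and 0.10 at 25 weeks, so the sums do not show a rise of the genes together. All 12 genes of differentiating spermatogonia passed the filter, as did all 16 pachytene spermatocyte genes and all 20 spermatid genes. In control arrays the summed signal was 3619 to 5295 for the differentiating, 32370 to 37350 for the pachytene and 13540 to 26830 for the spermatid genes. The name spermatogonia is thus that of the labels, and the share of each cell type was not measured. At 25 weeks 3 were higher and 1 lower among the differentiating, 3 and 6 among the pachytene and 0 and 6 among the spermatid genes. With the group as the sole term limma called 0 genes of any of these lists, with 11 and 12 of the Sertoli cell markers at an unadjusted p under 0.05 at 18 and 25 weeks and 5 of the leukocyte markers, 5 of the pachytene and 2 of the spermatid genes at 25 weeks. Leaving out 1 array at a time gave 1 to 9 calls among the Sertoli cell markers at 18 weeks, with 1 without VAD 18-week replicate 3, 2 without control replicate 2 and 3 without control replicate 1 or VAD 18-week replicate 2. At 25 weeks it gave 7 to 12 among the Sertoli cell markers, 1 to 3 among the Leydig cell, 2 to 4 among the leukocyte and 0 to 2 among the myoid markers, and 2 to 6 among the differentiating, 3 to 9 among the pachytene and 4 to 7 among the spermatid genes. The part of these differences in the results that follow was not tested.

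After 18 weeks of deficiency, 2 of the 81 subunit genes were higher than in the control arrays and 0 were lower. They were Atp5g3, a gene of the ATP synthase c subunit, and Cyc1, which carries the heme of complex III that hands electrons to cytochrome c. A gene passed the test, here and throughout, when the Benjamini-Hochberg adjusted p of limma over all 27022 probe sets was under 0.05. The 2 genes were 2.47% of the 81, while 1.36% of 13616 named genes were higher and 0.147% lower, and over probe sets 3 of 151 passed against 1.46% of all probe sets. The log2 fold change was above 0 in 59 of the 81 genes, with a median of 0.13 against -0.02 for all named genes and a range of -0.93 to 0.97. Median centring of the arrays turned the member median to -0.05, against -0.07 for all named genes. With the group as the sole term limma called 0 members. At an unadjusted p under 0.05 were 7 of the 81 members, against 1005 of 13616 named genes (7.38%). The count was 0 without control replicate 1 or control replicate 2 and 1 without VAD 18-week replicate 1, VAD 18-week replicate 2, VAD 25-week replicate 1 or VAD 25-week replicate 2. Of named genes 24 of 13616 and 24 of 13628 passed without control replicates 1 and 2. Without the other arrays listed 104 of 13635, 36 of 13637, 80 of 13627 and 74 of 13632 passed, in that order. The member count was 3 of 81 without the dim pair, where 583 of 13596 named genes (4.29%) passed in either direction.

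After 25 weeks of deficiency, 12 of the 81 genes differed from control, and they did so in both directions. Higher were Ndufa1, Ndufa3, Ndufb7 and Ndufc1 of complex I, Cyc1, Cycs and Atp5g3, and lower were Ndufa6 and Ndufa12 of complex I, Uqcr10 of complex III, Cox6a2 of complex IV and Atp5g1. The 7 higher genes were 8.64% of the members against 9.05% of all named genes, and the 5 lower ones 6.17% against 7.95%, so that the shares lay near the background and are no result about the respiratory chain as a set. Over probe sets 22 of 151 passed, 13 higher and 9 lower, against 14.8% of all probe sets. The median log2 fold change was 0.04 against -0.03 for all named genes. The median size regardless of sign was 0.22 against 0.38, and 60 of the 81 genes lay within 0.5 of 0 on the log2 scale against 61.9% of named genes.

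The 12 calls rested on the block. With the group as the sole term limma called 0 members at 25 weeks, and the smallest adjusted p of a member was 0.205. At an unadjusted p under 0.05 were 8 of the 81 members, against 1781 of 13616 named genes (13.1%). Without the dim pair 20 of the 81 members passed, 12 higher and 8 lower, against 2409 of 13596 named genes (17.7%). Of the 12 members called with the block, 7 were among these 20. Without the pair the 25-week group was replicates 1 and 2 alone, the arrays with the high actin ratios and poly-A control signals. In all 25-week values without or outside the pair, diet and those array differences cannot be told apart. The difference between the groups had opposite signs inside and outside the pair for 33 of the 81 members. The share over all named genes is not given here, so this count is no result about the members. On the scale as deposited the median of all named genes was 0.92. There 40 of the 81 members were higher and 0 lower, against 5361 of 13607 named genes higher (39.4%). The count of 12 fell to 4 without control replicate 1, 7 without control replicate 2, 7 without VAD 25-week replicate 1 and 6 without VAD 25-week replicate 2, was 8 without VAD 18-week replicate 2, and rose to 19 without control replicate 3 or VAD 25-week replicate 3. Of named genes 1191 of 13616, 1499 of 13628, 1170 of 13627, 1065 of 13632 and 1896 of 13637 passed in these cases up to VAD 18-week replicate 2. Without control replicate 3 it was 2365 of 13600, and without VAD 25-week replicate 3 it was 2334 of 13615. Between 25 and 18 weeks limma called 0 members and 0% of named genes and of probe sets. At an unadjusted p of limma under 0.05 were 13 of the 81 members, against 1776 of 13616 named genes (13%). Without the dim pair 2 of the 81 members passed, against 253 of 13596 named genes (1.86%).

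**Figure D1:**
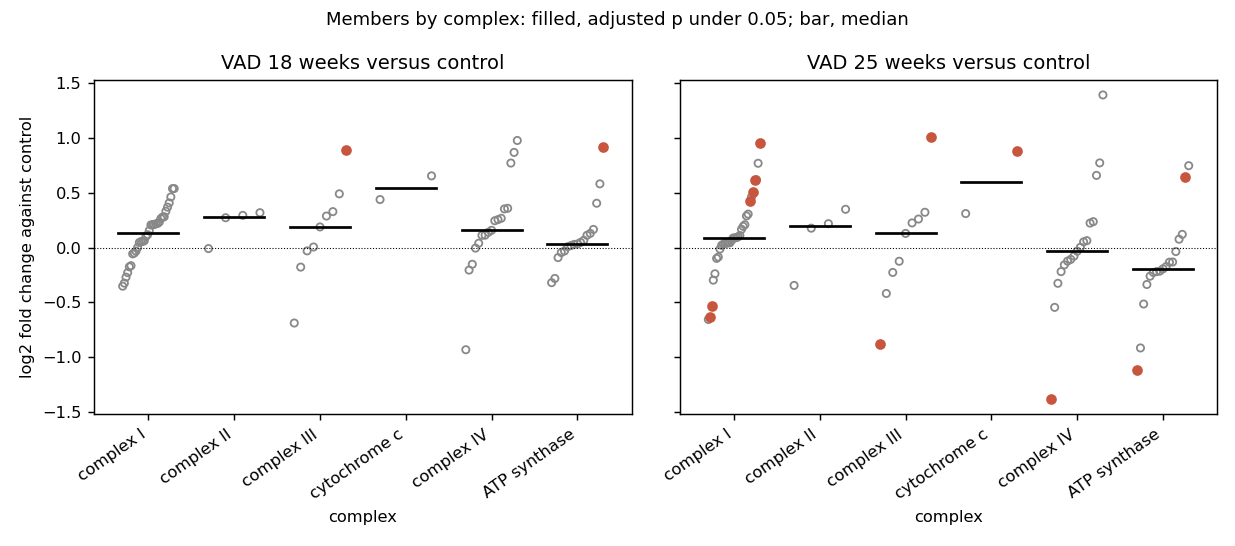
Log2 fold change against control of the 81 subunit genes (vertical axis) by complex (horizontal axis) after 18 weeks (left) and 25 weeks (right) of vitamin A deficiency; each circle is a gene, filled where the adjusted p was under 0.05, and bars are medians. At 18 weeks 2 circles are filled and both lie above 0, and at 25 weeks 7 filled circles lie above 0 and 5 below.

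**Figure D2:**
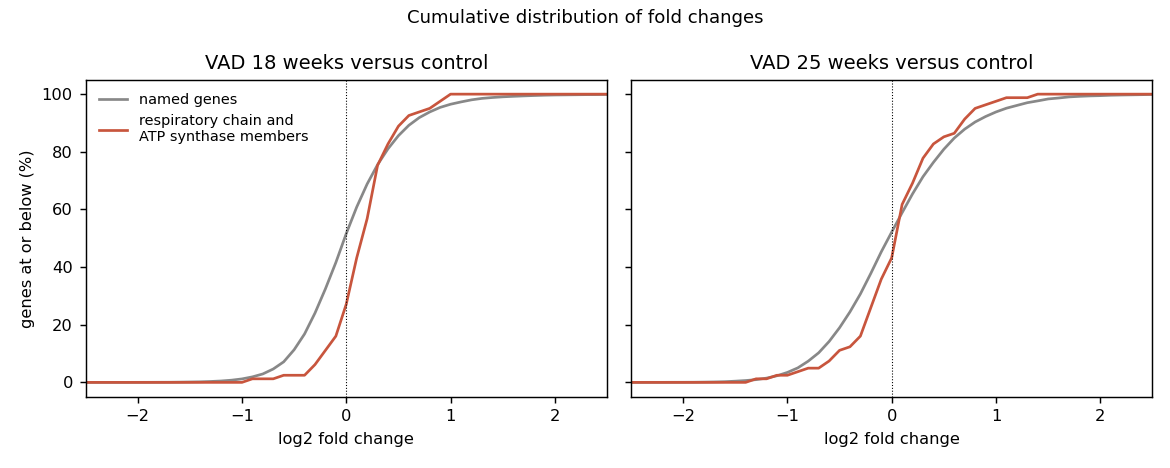
Share of genes (vertical axis, percent) whose log2 fold change against control was at or below the value on the horizontal axis, for the 81 subunit genes (red) and 13616 named genes (grey). The red curve lies to the right of the grey one around 0 at 18 weeks, with medians of 0.13 and -0.02, and the curves cross near 0 at 25 weeks, with medians of 0.04 and -0.03.

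Complex I, which oxidises NADH, had 4 genes higher (12.5%) and 2 lower (6.25%) among 32 after 25 weeks, and 0 in either direction after 18 weeks. Of all named genes 9.05% were higher and 7.95% lower at 25 weeks, and 1.36% and 0.147% at 18 weeks. Signals are normalised log2 values listed for replicates 1 to 3 of each group, so that the last control and the last 25-week value belong to the dim pair, and log2 fold changes carry the standard error of limma with n = 3 arrays a group. Ndufa1, a small accessory subunit needed for the assembly of the complex, read 8.42, 8.27 and 8.91 in the control arrays, 8.67, 8.83 and 9.21 at 18 weeks and 9.14, 9.53 and 9.78 at 25 weeks. All 25-week arrays lay above all control arrays. The log2 fold change was 0.95 ± 0.16 (adjusted p = 0.00413), it was 0.99 outside the dim pair and 0.87 inside it, and the call held without each array in turn. At 18 weeks Ndufa1 stood at 0.54 ± 0.17 (adjusted p = 0.151) and did not pass.

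Ndufa3, another accessory subunit, read 8.31, 8.43 and 9.68 in the control arrays, 9.13, 8.84 and 8.90 at 18 weeks and 8.97, 9.21 and 10.08 at 25 weeks. The dim control array lay above both bright 25-week arrays, and among the bright arrays the groups did not overlap. Its log2 fold change was 0.61 ± 0.14 (adjusted p = 0.0126), with an adjusted p of 0.0579 without control replicate 1 and 0.0708 without VAD 25-week replicate 2. Ndufc1, a subunit of the membrane arm, read 10.92, 10.97 and 11.79 in the control arrays, 11.17, 10.91 and 11.40 at 18 weeks and 11.59, 11.54 and 12.05 at 25 weeks, and again the dim control array overlapped the 25-week arrays. It changed by 0.50 ± 0.13 (adjusted p = 0.0242), and the adjusted p was 0.0955 and 0.0778 without control replicates 1 and 2 and 0.0895 and 0.0842 without VAD 25-week replicates 1 and 2. Ndufb7, which sits on the intermembrane face of the membrane arm, read 9.14, 9.16 and 10.48 in the control arrays, 9.23, 9.30 and 9.64 at 18 weeks and 9.66, 9.61 and 10.78 at 25 weeks. Its dim arrays stood more than 1 unit above the bright arrays of the same group. The log2 fold change was 0.42 ± 0.13 (adjusted p = 0.0476), and the adjusted p was between 0.0514 and 0.149 without any 1 of the control or VAD 25-week arrays and 0.0668 without VAD 18-week replicate 2. For Ndufa3, Ndufc1 and Ndufb7 alike, another probe set past the filter had the opposite sign at 25 weeks. It stood at -0.44 for Ndufa3, -0.37 for Ndufc1 and -0.29 for Ndufb7 and did not pass. The brightest probe set of Ndufa3, marked for possible cross-hybridisation, passed as higher, at 0.52 (adjusted p = 0.0437).

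Ndufa12, an accessory subunit of the peripheral arm, read 11.62, 11.94 and 9.26 in the control arrays, 11.44, 11.50 and 11.39 at 18 weeks and 11.18, 11.27 and 8.76 at 25 weeks. The dim arrays lay far below the bright ones, and within each set the 25-week arrays lay below the control arrays. It fell by 0.54 ± 0.11 (adjusted p = 0.00798), by similar amounts outside (-0.55) and inside (-0.50) the pair, and the call held without each array in turn. On the deposited scale, where the median of all named genes was 0.92, the value was 0.29. All 3 probe sets of Ndufa12 past the filter were lower, by -0.54, -0.68 and -0.70, and each carries a suffix that marks possible cross-hybridisation. Ndufa6, which anchors the acyl carrier protein in the peripheral arm, read 8.01, 7.91 and 6.60 in the control arrays, 7.89, 7.99 and 7.92 at 18 weeks and 7.62, 7.59 and 5.41 at 25 weeks. The 3 bright 18-week arrays lay between 7.89 and 7.99, near the 2 bright control arrays. It fell by 0.63 ± 0.18 (adjusted p = 0.0372), with a difference of -0.35 outside the dim pair and -1.19 inside it, and the value on the deposited scale was 0.48, against the same median of 0.92. The adjusted p of Ndufa6 was 0.0515 to 0.132 without any 1 of the control or VAD 25-week arrays, 0.0583 without VAD 18-week replicate 2 and 0.119 with neither dim array.

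The core subunits of complex I, by the probe set used for each gene, did not pass the test at either time. The catalytic subunits Ndufv1, which binds NADH and the flavin, Ndufs1, Ndufs7 and Ndufs8, which carry iron-sulfur clusters, and Ndufv2 had log2 fold changes of 0.29 ± 0.10, 0.04 ± 0.12, 0.09 ± 0.14, 0.46 ± 0.23 and -0.30 ± 0.11 at 25 weeks, with adjusted p of 0.0739, 0.841, 0.695, 0.209 and 0.0961. Without the dim pair Ndufv2 passed as lower, at -0.38 (adjusted p = 0.0385), and 1 of the other 5 probe sets of Ndufs8, marked for possible cross-hybridisation, passed as higher with the block, at 0.50 ± 0.15 (adjusted p = 0.0437). At 18 weeks the smallest p of complex I was that of Ndufa3, at 0.54 ± 0.14 (adjusted p = 0.0924), and Ndufa13, which is also a cell death regulator, stood at 0.46 ± 0.14 (adjusted p = 0.138). The median of the 32 genes was 0.14 at 18 weeks and 0.09 at 25 weeks, and 24 of the 32 lay within 0.5 of 0 at 25 weeks. Ndufb6 showed how far the dim pair could decide a value. It stood at 0.62 ± 0.24 with the block (adjusted p = 0.103), at 1.10 outside the pair and at -0.35 inside it, and passed without the pair (adjusted p = 0.00118). Ndufb6 was chosen after its values were seen.

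**Figure D3:**
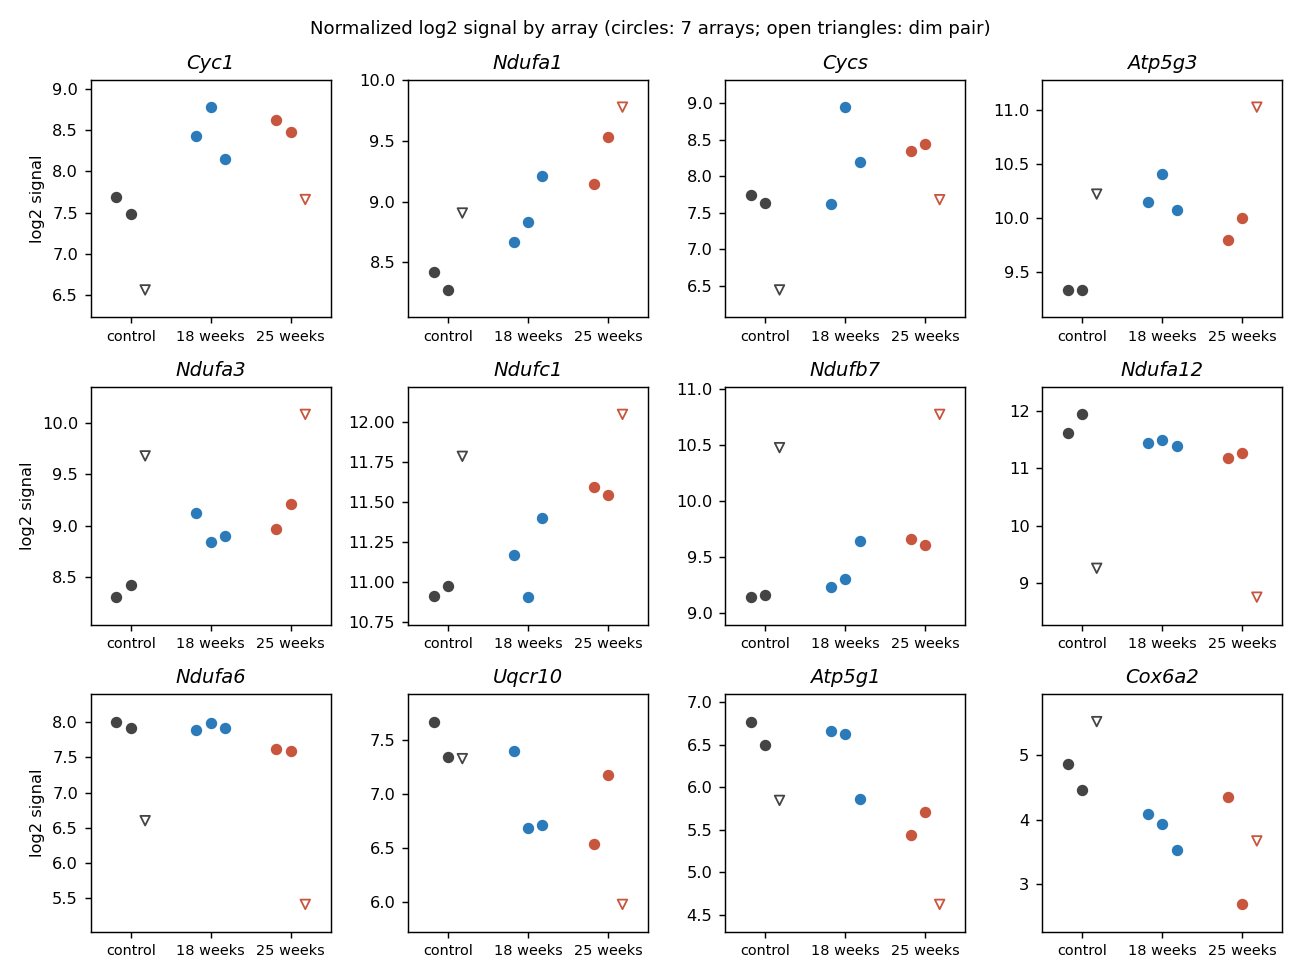
Normalised log2 signal (vertical axis) of the 12 genes that passed the test at 25 weeks, by group (horizontal axis); each symbol is an array, and open triangles mark the dim pair. Ndufa1 is higher on all 25-week than on all control arrays, Atp5g1, Uqcr10 and Cox6a2 are lower on all of them, and for the other 8 genes the dim control array overlaps the 25-week arrays or a dim 25-week array overlaps the controls.

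Complex II, which is also the succinate dehydrogenase of the citric acid cycle, had 0 of 4 genes past the test at either time. Of all named genes 9.05% were higher and 7.95% lower at 25 weeks, and 1.36% and 0.147% at 18 weeks. Sdha, the flavoprotein, read 9.96, 10.12 and 8.72 in the control arrays, 10.20, 10.17 and 10.33 at 18 weeks and 10.18, 10.20 and 9.47 at 25 weeks, and stood at 0.29 ± 0.14 at 18 weeks (adjusted p = 0.332) and 0.35 ± 0.13 at 25 weeks (adjusted p = 0.106). Apart from the dim pair, its arrays spanned 9.96 to 10.33. A further Sdha probe set of low signal passed at 25 weeks, at 1.36 ± 0.37 (adjusted p = 0.0307), and did not without the dim pair (adjusted p = 0.0998). The membrane anchor Sdhc stood at 0.32 ± 0.19 at 18 weeks and -0.34 ± 0.18 at 25 weeks, and the difference between the times was -0.66 ± 0.19 (adjusted p = 0.212). Sdhb, the iron-sulfur protein, and Sdhd, the other anchor, stood at 0.18 ± 0.12 and 0.22 ± 0.23 at 25 weeks.

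Complex III had 1 of 9 genes higher at 18 weeks (11.1%), and 1 higher and 1 lower at 25 weeks (11.1% each). Of all named genes 1.36% were higher at 18 weeks, and 9.05% were higher and 7.95% lower at 25 weeks. Cyc1 read 7.68, 7.49 and 6.56 in the control arrays, 8.43, 8.78 and 8.15 at 18 weeks and 8.62, 8.48 and 7.66 at 25 weeks. All 18-week arrays lay above all control arrays, and the 25-week arrays did so within the bright and within the dim set, while the dim 25-week array lay just under control replicate 1. The log2 fold change was 0.89 ± 0.18 at 18 weeks (adjusted p = 0.0386) and 1.01 ± 0.17 at 25 weeks (adjusted p = 0.0039), a fold of 1.85 and 2.01, and the comparisons share the control arrays. The 25-week value was 0.96 outside and 1.10 inside the dim pair, and its adjusted p was at most 0.0217 without each array in turn. The 18-week call of Cyc1 was lost without control replicate 1 or 2 (adjusted p = 0.115 and 0.154), VAD 18-week replicate 1 or 2 (0.0864 and 0.129) and VAD 25-week replicate 1 or 2 (0.0767 and 0.0817).

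Uqcr10, the small subunit beside cytochrome c1, read 7.67, 7.34 and 7.32 in the control arrays, 7.40, 6.68 and 6.71 at 18 weeks and 6.54, 7.18 and 5.98 at 25 weeks. All 25-week arrays lay below all control arrays, and 2 of the 3 18-week arrays did so too. It fell by 0.88 ± 0.25 at 25 weeks (adjusted p = 0.039), with -0.64 outside and -1.35 inside the dim pair. The value on the deposited scale was 0.22, against a median of 0.92 for all named genes. The call of Uqcr10 was lost without control replicate 1 (adjusted p = 0.114), control replicate 3 (0.148), VAD 18-week replicate 2 (0.0522), VAD 25-week replicate 1 (0.137) or VAD 25-week replicate 3 (0.146). The other 7 genes of complex III did not pass. Uqcrb, the quinone-binding protein, stood at 0.49 ± 0.12 at 18 weeks (adjusted p = 0.0792) and at 0.22 ± 0.12 at 25 weeks. The core proteins Uqcrc1 and Uqcrc2 stood at -0.42 ± 0.22 and 0.32 ± 0.11 at 25 weeks, and Uqcrfs1, the Rieske iron-sulfur protein, at 0.26 ± 0.16.

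Cytochrome c is the soluble carrier between complex III and complex IV, and when released from mitochondria it starts apoptosis. The somatic gene Cycs read 7.74, 7.64 and 6.44 in the control arrays, 7.62, 8.95 and 8.20 at 18 weeks and 8.34, 8.45 and 7.68 at 25 weeks. Among the bright arrays the 25-week values lay above the control values, and the dim 25-week array fell between the bright controls. Its log2 fold change was 0.88 ± 0.27 at 25 weeks (adjusted p = 0.0495) and 0.65 ± 0.29 at 18 weeks (adjusted p = 0.286). The 25-week call of Cycs stood at the threshold, and the adjusted p was 0.0882 to 0.165 without any 1 of the control or VAD 25-week arrays, 0.07 without VAD 18-week replicate 3 and 0.159 when the dim pair was left out. A further Cycs probe set changed by 1.10 ± 0.28 (adjusted p = 0.0237), and by 1.35 without the pair (adjusted p = 0.0276).

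The testis form Cyct read 9.39, 9.52 and 9.10 in the control arrays, 10.11, 10.02 and 9.59 at 18 weeks and 9.75, 9.83 and 9.37 at 25 weeks. It did not pass at 18 weeks, 0.44 ± 0.15 (adjusted p = 0.175), or at 25 weeks, 0.31 ± 0.14 (adjusted p = 0.164). The difference Cyct minus Cycs within an array, which sets how the forms change and not their levels, was 1.65, 1.88 and 2.66 in the control arrays, 2.50, 1.07 and 1.39 at 18 weeks and 1.41, 1.38 and 1.69 at 25 weeks. Its mean stood -0.41 from that of the controls at 18 weeks (p = 0.5, exact two-sided permutation test of 3 against 3 arrays) and -0.57 at 25 weeks (p = 0.2, exact), and the ranges of the groups overlapped. With 3 arrays a group the smallest p that this test can give is 0.1, and over the 6 tests of 3 isoform pairs the adjusted p was 0.6 and 0.4.

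Complex IV, the cytochrome c oxidase, had 0 of 17 genes past the test at 18 weeks and 1, lower, at 25 weeks. The lower gene was 5.88% of the complex, against 7.95% of all named genes, and 0 were higher against 9.05%. Cox6a2, the heart and muscle form of subunit 6a, read 4.87, 4.46 and 5.53 in the control arrays, 4.09, 3.93 and 3.53 at 18 weeks and 4.36, 2.68 and 3.67 at 25 weeks. All 25-week arrays lay below all control arrays, as did all 18-week arrays, at low signals. It fell by 1.38 ± 0.42 at 25 weeks (adjusted p = 0.0474) and stood at -0.93 ± 0.45 at 18 weeks (adjusted p = 0.325). The 25-week call of Cox6a2 held without VAD 25-week replicate 1 and was lost without each of the other 8 arrays, with adjusted p of 0.0614 to 0.187, and it was 0.146 when the dim pair was left out. The widespread form Cox6a1 stood at 0.05 ± 0.13 at 25 weeks (adjusted p = 0.823).

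The testis forms of complex IV did not pass at either time, though Cox6b2 and Cox8c passed as lower at 25 weeks once the dim pair was left out. Cox6b2 read 9.52, 9.35 and 7.20 in the control arrays, 9.56, 9.31 and 9.23 at 18 weeks and 8.83, 9.0 and 7.77 at 25 weeks, and its somatic partner Cox6b1 read 7.03, 6.49 and 4.58 in the control arrays, 7.06, 7.54 and 7.73 at 18 weeks and 7.17, 7.32 and 5.58 at 25 weeks. At 25 weeks Cox6b2 stood at -0.16 ± 0.20 (adjusted p = 0.635), with -0.52 outside the dim pair and 0.57 inside it, and without the pair its adjusted p was 0.0381. Cox6b1 stood at 0.66 ± 0.23 (adjusted p = 0.0744), and at 18 weeks the forms stood at 0.11 ± 0.21 and 0.77 ± 0.24 (adjusted p = 0.838 and 0.142). So both bright 25-week arrays were below the bright controls in Cox6b2 and above them in Cox6b1. The difference Cox6b2 minus Cox6b1 was 2.49, 2.87 and 2.62 in the control arrays, 2.51, 1.76 and 1.5 at 18 weeks and 1.66, 1.68 and 2.20 at 25 weeks. All 25-week arrays lay below all control arrays, by -0.81 on average (p = 0.1, exact two-sided permutation test, the smallest it can give; adjusted p = 0.4), with -1.01 outside and -0.43 inside the dim pair. At 18 weeks its mean stood -0.74 from that of the controls (p = 0.2, exact; adjusted p = 0.4), and VAD 18-week replicate 1 lay within the range of the controls. These values use the brighter of 2 probe sets of Cox6b1. The dimmer one stood at 0.14 ± 0.21 at 25 weeks, and with the mean of both the difference from the controls was -0.56 at 25 weeks (exact permutation test, adjusted p = 0.8) and -0.081 at 18 weeks (adjusted p = 0.9).

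Cox8c, the testis form of subunit 8, read 11.24, 11.02 and 11.10 in the control arrays, 11.40, 11.11 and 11.40 at 18 weeks and 10.61, 10.68 and 11.10 at 25 weeks. Both bright 25-week arrays lay below every other array. Its log2 fold change was 0.25 ± 0.14 at 18 weeks (adjusted p = 0.384), -0.33 ± 0.13 at 25 weeks (adjusted p = 0.114) and -0.58 ± 0.14 between the times (adjusted p = 0.172). Without the dim pair the difference from control at 25 weeks passed (adjusted p = 0.0307), as did that between the times, -0.62 (adjusted p = 0.0322), while inside the pair the arrays differed by 0.00. The somatic Cox8a read 5.59, 5.29 and 4.90 in the control arrays, 5.86, 5.03 and 5.71 at 18 weeks and 4.78, 4.83 and 5.85 at 25 weeks, with log2 fold changes of 0.36 ± 0.36 at 18 weeks and -0.11 ± 0.34 at 25 weeks. The mean of Cox8c minus Cox8a stood -0.09 from that of the controls at 18 weeks and -0.22 at 25 weeks (both p = 0.6, exact two-sided permutation test; adjusted p = 0.6), and without the dim pair the sign turned, to 0.059 and 0.25. With the mean of both Cox8c probe sets it was -0.62 at 18 weeks and -0.15 at 25 weeks (exact, adjusted p = 0.8 and 0.9). Cox7b2, the testis form of subunit 7b, stood at 0.04 ± 0.23 at 18 weeks and -0.22 ± 0.22 at 25 weeks, and Cox7b had no probe set with 1 gene symbol.

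**Figure D4:**
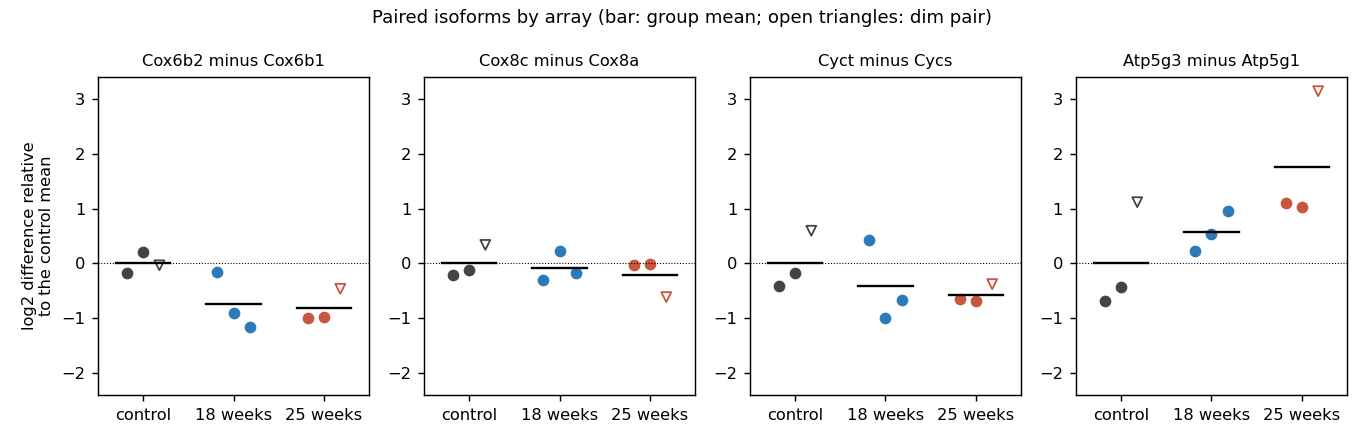
Difference between the normalised log2 signals of paired isoforms on each array, relative to the control mean (vertical axis), by group (horizontal axis); bars are group means and open triangles the dim pair. Cox6b2 minus Cox6b1, by the probe sets used, is below the control arrays on all 25-week arrays, while Cox8c minus Cox8a and Cyct minus Cycs overlap between groups, and Atp5g3 minus Atp5g1 is highest on the dim 25-week array.

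Among the other subunits of complex IV, Cox4i1, the main form of subunit 4, stood at 0.22 ± 0.10 at 25 weeks, and Cox4i2, the lung form, at 0.24 ± 0.45, at low signals. Cox7a2, the widespread partner of Cox7a1, stood at -0.08 ± 0.10. Cox7c, chosen after its values were seen, read 2.06, 2.55 and 2.96 in the control arrays, 3.88, 3.65 and 3.72 at 18 weeks and 4.47, 4.79 and 2.47 at 25 weeks, low values at which the 2 bright 25-week arrays were highest. It stood at 1.39 ± 0.52 with the block (adjusted p = 0.0973), at 2.33 outside the dim pair and at -0.49 inside it, and passed without the pair (adjusted p = 0.00429). A brighter probe set of Cox7c, marked for possible cross-hybridisation, stood at 0.95 with the block (adjusted p = 0.077). The median of the 17 genes was 0.16 at 18 weeks and -0.03 at 25 weeks.

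The ATP synthase had 1 of 17 genes higher at 18 weeks (5.88%), and 1 higher and 1 lower at 25 weeks (5.88% each). Of all named genes 1.36% were higher at 18 weeks, and 9.05% were higher and 7.95% lower at 25 weeks. The called genes were both of the c subunit, the ring that turns with the proton flow. The mature c subunit is the same for Atp5g1, Atp5g2 and Atp5g3, which differ in their mitochondrial targeting peptides. Atp5g3 read 9.34, 9.34 and 10.22 in the control arrays, 10.15, 10.41 and 10.08 at 18 weeks and 9.80, 10.0 and 11.02 at 25 weeks. All bright deficient arrays lay above the bright controls, and the dim control array lay within the range of the 18-week arrays. The log2 fold change was 0.92 ± 0.13 at 18 weeks (adjusted p = 0.00954) and 0.64 ± 0.12 at 25 weeks (adjusted p = 0.00676), a fold of 1.89 and 1.56, and the comparisons share the control arrays. The 25-week call held without each array in turn and was 0.56 outside and 0.80 inside the dim pair, while the 18-week adjusted p of Atp5g3 was 0.0554 without control replicate 1 and 0.0535 without control replicate 2.

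Atp5g1 read 6.77, 6.50 and 5.85 in the control arrays, 6.66, 6.62 and 5.87 at 18 weeks and 5.43, 5.71 and 4.62 at 25 weeks. All 25-week arrays lay below all control arrays, and the 18-week arrays overlapped the controls. It fell by 1.12 ± 0.24 at 25 weeks (adjusted p = 0.0116), a fold of 0.461, with -1.06 outside and -1.22 inside the dim pair. On the deposited scale its value was -0.02, against a median of 0.92 for all named genes. The adjusted p of Atp5g1 was 0.0525 without control replicate 1 and 0.0519 without VAD 25-week replicate 1. At 18 weeks it stood at -0.28 ± 0.26 (adjusted p = 0.622). Atp5g2 stood at 0.13 ± 0.20 at 18 weeks and -0.22 ± 0.19 at 25 weeks (adjusted p = 0.479).

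Set beside each other after their values were seen, Atp5g3 minus Atp5g1 was 2.57, 2.83 and 4.38 in the control arrays, 3.49, 3.79 and 4.21 at 18 weeks and 4.36, 4.28 and 6.40 at 25 weeks. The difference was 1.76 higher at 25 weeks than in controls, 1.62 outside and 2.03 inside the dim pair, and 0.57 higher at 18 weeks. Over all 3 arrays a group the ranges overlapped, because the dim control array lay above both bright 25-week arrays. The exact two-sided permutation p was 0.3 at 25 weeks and 0.4 at 18 weeks, where 0.1 is the smallest possible.

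The other subunits of the ATP synthase lay mostly near or below 0 at 25 weeks. Of the 17 genes 4 had a log2 fold change above 0, with a median of -0.19, against 12 above 0 and a median of 0.03 at 18 weeks. Of all named genes 47.9% were above 0 at 25 weeks and 48.4% at 18 weeks. Atp5c1, chosen after its values were seen, was the highest of the 17 at 25 weeks, at 0.74 ± 0.32 (adjusted p = 0.139) and low signals. All its 25-week arrays lay above all control arrays. A brighter probe set of Atp5c1, marked for possible cross-hybridisation, stood at -0.02 (adjusted p = 0.912). Atp5a1, a subunit of the catalytic head, stood at 0.08 ± 0.12 at 25 weeks by the probe set used. Its brightest probe set, marked for possible cross-hybridisation, passed as higher at 18 weeks (0.57 ± 0.12, adjusted p = 0.0415) and at 25 weeks (0.75 ± 0.11, adjusted p = 0.00218). Atp5b, also of the catalytic head, stood at 0.12 ± 0.12 at 25 weeks, and Atp5o, which joins the head to the peripheral stalk, at -0.19 ± 0.12. Atp5k, subunit e of the membrane part, was chosen after its values were seen and read 9.47, 9.33 and 8.46 in the control arrays, 9.36, 9.44 and 8.26 at 18 weeks and 7.88, 7.93 and 8.71 at 25 weeks. Its bright 25-week arrays and the last 18-week array were the lowest, and it stood at -0.91 ± 0.35 (adjusted p = 0.102), -1.5 outside the dim pair and 0.25 inside it, and passed without the pair (adjusted p = 0.00966). A brighter probe set of Atp5k, also marked for possible cross-hybridisation, stood at -0.41 (adjusted p = 0.119), and a dimmer one with the same mark at 0.30 (adjusted p = 0.165).

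Probe sets of the same gene often differed. Of the 43 genes with several probe sets past the filter, all of a gene's probe sets shared 1 sign in 27 at 18 weeks and in 22 at 25 weeks, none had probe sets called in both directions at either time, and 12 had at least 1 called at 25 weeks. For 12 genes a probe set with a suffix for possible cross-hybridisation was brighter than the one used. Taking the brightest probe set in every case gave 3 higher and 0 lower genes at 18 weeks, with Atp5a1 added, and 9 higher and 5 lower genes at 25 weeks, with Atp5a1 and Atp5pb added. The brightest probe set of Atp5pb, a peripheral stalk subunit, stood at 0.99 ± 0.15 (adjusted p = 0.00256) at 25 weeks against -0.26 ± 0.17 for the one used. Further probe sets that passed were lower for Atp5o (-0.93) and Ndufa7 (-0.90) and higher for Ndufs8 (0.50), each in a probe set marked for possible cross-hybridisation.

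Of 49 assembly factors of the respiratory chain 5 were higher (10.2%) and 3 lower (6.12%) at 25 weeks, near the 9.05% and 7.95% of all named genes, with a median of -0.04 against -0.03. At 18 weeks 0 genes passed among the assembly factors, the regulators of mitochondrial biogenesis and the citric acid cycle enzymes. Dmac2, an assembly factor of complex I, stood at -1.0 ± 0.21 (adjusted p = 0.0104) at 25 weeks and Sdhaf2, which inserts the flavin of complex II, at -0.86 ± 0.20 (adjusted p = 0.0152). On the deposited scale the values were 0.16 and 0.23, against a median of 0.92 for all named genes. Coa5 and the copper chaperone Cox17, both of complex IV, were higher by 0.61 ± 0.14 (adjusted p = 0.0145) and 0.51 ± 0.13 (adjusted p = 0.0233). The call of Coa5 was lost without control replicate 1 (adjusted p = 0.0644) or VAD 25-week replicate 1 or 2 (0.0688 and 0.0531), that of Cox17 without any of those arrays or control replicate 2 (0.0704 to 0.0897), and that of Sdhaf2 without VAD 25-week replicate 2 (0.0525).

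Of 21 regulators of mitochondrial biogenesis 3 were higher (14.3%) and 1 lower (4.76%) at 25 weeks, with a median of 0.16. Ssbp1, which coats single-stranded mitochondrial DNA, changed by 1.51 ± 0.25 (adjusted p = 0.00359), Gabpb2 of the GABP complex by 1.33 ± 0.25 (adjusted p = 0.00654) and Yy1 by 0.91 ± 0.17 (adjusted p = 0.0055). Each of the 3 was higher on all 25-week than on all control arrays and kept its call without each array in turn. Polg, the mitochondrial DNA polymerase, stood at -0.51 ± 0.15 (adjusted p = 0.0422), and at 0.46 on the deposited scale, where the median of all named genes was 0.92. The call of Polg was lost without control replicates 1 or 2, VAD 18-week replicate 2 or VAD 25-week replicates 1 or 2 (adjusted p = 0.0635 to 0.159). At 18 weeks Ppargc1a, a coactivator of biogenesis, stood at -0.80 ± 0.34 (adjusted p = 0.27) and Nrf1 at -0.76 ± 0.32 (adjusted p = 0.267).

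Of 18 citric acid cycle enzymes and their pyruvate dehydrogenase entry 4 were higher (22.2%, against 9.05% of all named genes) and 0 lower at 25 weeks, with a median of 0.11. Dld, a subunit shared by the dehydrogenase complexes, changed by 0.84 ± 0.18 (adjusted p = 0.0106) and kept its call without each array in turn. Citrate synthase, Cs, changed by 0.50 ± 0.13 (adjusted p = 0.0277), and its adjusted p was 0.0749 without the dim pair and 0.0647 to 0.12 without any 1 of control replicates 1 to 3 or VAD 25-week replicates 2 and 3. Pdhb and Idh3a changed by 0.35 ± 0.11 and 0.50 ± 0.15 (adjusted p = 0.0468 and 0.0499) and lost their calls without any 1 of control replicates 1 and 2, VAD 18-week replicates 1 and 2 or VAD 25-week replicates 1 and 2 (adjusted p = 0.0572 to 0.177). With the group as the sole term limma called 0 genes of these 3 lists, with 3 assembly factors, 5 regulators and 0 enzymes at an unadjusted p under 0.05 at 25 weeks, and leaving out 1 array at a time gave 1 to 9 calls among the assembly factors, 3 to 6 among the regulators and 1 to 4 among the enzymes.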

How the data were processed

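Gene expression was measured on 9 Affymetrix arrays in 3 groups of 3. The deposited values are linear intensities, called MAS5 signals by the submitters' processing notes, and the version, target and any detection calls were not given in the sources used here. These deposited intensities became log2(signal + 3.2592), the constant being the 25th percentile of the signals, were quantile normalised between arrays and then left without the 64 control probe sets, and were kept where the mean reached the 40th percentile, 27022 of 45101. Fold changes are thus on the log2(signal + constant) scale, understate the change of dim probe sets and are relative to all probe sets.

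Differences were fitted with limma 3.58.1 in R 4.3.3 (eBayes with trend) over all 9 arrays with the group and a block for the dim pair, the arrays with a trimmed mean (2% from each end) under 0.5 of the median, which left 5 residual degrees of freedom against 6 without it. Symbols came from GEO's platform annotation, 34945 probe sets with 1, 932 with several and 9160 with none. A gene took its brightest probe set, those marked for cross-hybridisation last. The code was tested on simulated data. The genes, lists, block and tests were chosen with earlier results of these data known. Named were the called genes, the smallest p of each complex, the isoform pairs and up to 4 genes of each list. Alternatives were other scalings, constants, filters, variance models, blocks, probe sets and leaving out arrays.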

Additional observations from a re-analysis of the deposited data

How the results depend on the processing

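The count of members called at 18 weeks, 2, was 0 without the block for the dim pair, on the deposited scale and without a trend in the variance, 1 after median centring and 0 to 3 without 1 array at a time. Of named genes 0 of 13616 passed there without the block or without the trend, 76 of 13607 on the deposited scale and 276 of 13607 after median centring. At 25 weeks the 12 became 0 without the block, 20 without the dim pair, 40 on the deposited scale, 7 with no filter, 3 without a trend, 25 with array weights, 22 counted as probe sets and 4 to 19 without 1 array. The 12 stood beside 2315 of 13616 named genes. Of named genes 1851 of 18193 passed with no filter, 1301 of 13616 without a trend and 3691 of 13616 with array weights. On the deposited scale 5365 of 13607 passed. Between the times the 0 became 2 without the pair, 4 on the deposited scale, 7 with array weights and 0 to 2 without 1 array. Of named genes 253 of 13596 passed without the pair, 943 of 13607 on the deposited scale and 907 of 13616 with array weights. On the deposited scale the median member change was 0.97 at 25 weeks and 0.81 between the times, against 0.92 and 0.83 for all named genes. After median centring it was 0.14 between the times, against 0.16 for all named genes. Without 1 array at a time the member median was 0.10 to 0.17 at 18 weeks and -0.05 to 0.10 at 25 weeks. Between the times it was then -0.14 to -0.07. Same-numbered arrays of different groups had correlated deviations of r = -0.00469 to 0.69, which does not show pairing, and a replicate block beside the dim-pair block gave 0 members at 18 weeks, 8 at 25 weeks and 0 between the times. Of 13616 named genes it gave 9, 1522 and 0. Cox8c minus Cox8a turned sign without the dim pair, to 0.059 and 0.25, and ranged over -0.24 to 0.0703 at 18 weeks and -0.32 to 0.0166 at 25 weeks without 1 array. Without 1 array Cox6b2 minus Cox6b1 ranged over -1.01 to -0.52 and -1.02 to -0.71, and Cyct minus Cycs over -0.83 to -0.12 and -0.77 to -0.28. With the mean of all kept probe sets of each gene Cox6b2 minus Cox6b1 was -0.081 at 18 weeks and -0.56 at 25 weeks, Cox8c minus Cox8a -0.62 and -0.15, and Cyct minus Cycs -0.21 and -0.47. On the deposited scale Ndufa12 (0.29), Ndufa6 (0.48), Uqcr10 (0.22), Dmac2 (0.16), Polg (0.46) and Sdhaf2 (0.23) were above 0 at 25 weeks, and below the median of all named genes, 0.92. Cox17 was -0.076 with no filter, where another probe set stands for it. The causes were not tested.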
